A study of Homo sapiens with 6 samples.

Results

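In human retinal organoid fragments, transplanted or cultured, 10 genes of the circadian clock were followed: CLOCK, ARNTL, PER1, PER2, PER3, CRY1, CRY2, NR1D1, DBP and BHLHE41. They were taken by symbol and make up 10 of the 36601 genes in the deposited tables. The organoids were grown from human embryonic stem cells (the established line WA09) with CRX-tdTomato, a red fluorescent reporter of CRX, which is a transcription factor of photoreceptor precursors. In the transplanted samples, organoids grown for 113 to 126 days were cut into fragments by trituration and placed under the retina of normal dogs, where they stayed for 3 days. In the cultured samples, fragments of the same organoid batches went through the same trituration and were kept in a dish for those 3 days. There were 3 independent experiments, called Sets, each with 1 transplanted and 1 cultured sample, so n = 3 per group and all samples share the 1 reporter line. The labels give no time of day for any collection, and the host tissue was dog, so a transplanted sample may also hold some dog RNA.

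The clock is a feedback loop of transcription. CLOCK and ARNTL (also called BMAL1) pair up and turn on the PER and CRY genes, whose proteins return to shut that pair off, and NR1D1 (REV-ERB alpha), which represses ARNTL. BHLHE41 (DEC2) is a further repressor that competes for the same DNA element, the E-box, and DBP is an output factor that binds the D-box. Photoreceptors and inner retinal neurons carry their own clocks, which time melatonin synthesis and dopamine release, and light, glucocorticoids and cyclic AMP can reset them.

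Cells were assigned to classes by marker counts. Rods needed at least 3 UMIs (unique molecular identifiers, 1 per captured transcript) of NRL, cones at least 3 of PDE6H and more than of NRL, Müller glia at least 3 of HES5, WIF1 and TTYH1 together, and amacrine cells at least 2 of TFAP2A and TFAP2B together. Cells passing more than 1 gate were left out. Rods numbered 1033, 143 and 1111 in transplanted Sets 1 to 3 and 1651, 2359 and 317 in cultured Sets 1 to 3. Cones numbered 544, 13 and 123 in the transplanted and 1469, 425 and 79 in the cultured samples, and Müller glia 1572, 25 and 116 against 3153, 473 and 30. Amacrine cells numbered 18, 27 and 185 in the transplanted and 95, 792 and 183 in the cultured samples. A sum needed 20 cells, so the comparison within cones rests on Sets 1 and 3 and that within amacrine cells on Sets 2 and 3. All 8 cone markers and all 9 Müller glia markers measured were highest in their own class, as were 7 of 8 amacrine markers (SLC6A9 was highest in cones). These counts include the gate genes PDE6H, HES5, WIF1, TTYH1, TFAP2A and TFAP2B, for which the gates fixed that outcome. Horizontal cells also make TFAP2A and TFAP2B, and 6 horizontal cell markers summed to 2310 and 2580 CPM in the transplanted and 965 to 3033 CPM in the cultured sums of the amacrine class, against 1813 and 1529 CPM and 1583 to 1886 CPM for the 8 amacrine markers. That class is therefore called amacrine for its gate only and holds horizontal cell RNA as well. CPM are UMI counts scaled to the UMI total of the summed cells. NR2E3, a nuclear receptor of rod precursors that no gate used, averaged 274.6 CPM in rods and 13.4 CPM in cones. It averaged 16.1 CPM in Müller glia and 7.23 CPM in amacrine cells.

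Samples differed in ways that bear on every value below. Total UMIs ranged between 6850189 and 45281930 in transplanted and between 8000032 and 108222149 in cultured samples. Set 1 was processed with another version of the counting software than Sets 2 and 3, and several clock genes were lower there in both groups. CRY1 in rods averaged 14.2 CPM in Set 1 and 104.7 CPM in Sets 2 and 3. NR1D1 averaged 12.4 CPM in Set 1 and 14.5 CPM in Sets 2 and 3, and DBP 20.1 and 18.8 CPM. Over the 10 genes, the mean of Sets 2 and 3 in rods was between 0.94 (DBP) and 7.38 (CRY1) times that of Set 1. Software version and experiment cannot be told apart here, so groups are compared within Sets. The median mitochondrial share of kept cells was 4.08, 1.46 and 2.50% in transplanted Sets 1 to 3, against 1.71, 2.57 and 0.876% in cultured Sets 1 to 3. Between any 2 libraries at most 0.878% of the cell barcodes of the smaller one were shared.

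The promoters of the members differ in the clock elements they hold. In the 250 bases before the RefSeq start site (GRCh38.p14), searched on both strands, the E-box CACGTG was present in PER1 and BHLHE41, the D-box TTATGTAA in PER3 and the ROR element core AGGTCA, where NR1D1 and the ROR activators bind, in PER1 and CRY2. The cAMP response element TGACGTCA was in none of the 10. Over 27305 genes these letters occur in 7.73% for the E-box, 1.06% for the D-box, 14.6% for the ROR core and 2.03% for the cAMP response element, so a match is a description of the window and not evidence of binding. The 3 windows with an E-box or a D-box are shown 5′ to 3′ on the gene's strand, with the matched letters in capitals.
PER1 promoter, chr17:8152405-8152654, minus strand (E-box 173 bases and, as its reverse complement, the ROR core 144 bases before the start): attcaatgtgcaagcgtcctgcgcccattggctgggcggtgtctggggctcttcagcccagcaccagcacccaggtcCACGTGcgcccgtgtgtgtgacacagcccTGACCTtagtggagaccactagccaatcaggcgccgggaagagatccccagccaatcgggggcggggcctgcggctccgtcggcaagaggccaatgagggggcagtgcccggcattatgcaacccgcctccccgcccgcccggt
BHLHE41 promoter, chr12:26125038-26125287, minus strand (E-box 48 bases before the start): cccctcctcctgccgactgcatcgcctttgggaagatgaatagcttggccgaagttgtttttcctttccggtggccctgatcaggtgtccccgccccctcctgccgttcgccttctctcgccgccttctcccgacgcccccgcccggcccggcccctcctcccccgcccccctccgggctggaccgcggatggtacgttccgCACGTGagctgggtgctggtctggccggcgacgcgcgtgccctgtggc
PER3 promoter, chr1:7784041-7784290, plus strand (D-box 177 bases before the start): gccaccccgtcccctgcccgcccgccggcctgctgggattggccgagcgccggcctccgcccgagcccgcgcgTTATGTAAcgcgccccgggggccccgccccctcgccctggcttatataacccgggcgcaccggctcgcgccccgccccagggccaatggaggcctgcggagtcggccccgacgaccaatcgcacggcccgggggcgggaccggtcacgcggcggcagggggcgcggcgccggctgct

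The activators gave 1 difference of level between classes. CLOCK (chr4:55427903-55547138, minus strand in GENCODE 29) averaged 63.3 ± 21.8 CPM in rods (SD, n = 6 samples of both groups), 52.4 ± 19.9 CPM in cones (n = 5), 55.9 ± 23.4 CPM in Müller glia (n = 6) and 72.9 ± 30.9 CPM in amacrine cells (n = 5). No pair of classes passed the test for CLOCK. ARNTL (chr11:13276652-13387266, plus strand) averaged 54.5 ± 16.3 CPM in amacrine cells, 48.0 ± 24.7 CPM in cones, 46.8 ± 13.2 CPM in Müller glia and 38.9 ± 13.2 CPM in rods. Class means here and below are not balanced over Sets, since Set 1 gave 1 amacrine sum and 2 sums of each other class. In Sets 2 and 3 alone ARNTL averaged 62.4 CPM in cones, 59.4 CPM in amacrine cells, 53.5 CPM in Müller glia and 46.4 CPM in rods. Of its 6 pairs only rods against Müller glia passed, with rods lower (log2 -0.48 ± 0.15 SE, adjusted p = 0.007 by edgeR's quasi-likelihood test over all genes). 

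Among the repressors, BHLHE41 and PER1 were lower in amacrine cells than in each of the other 3 classes when tested over all samples, on at most 29 counts per amacrine sum. Over the 10 genes and 6 pairs of classes, 12 of 60 tests of level passed, in 5 genes. Of all genes tested, 7.37% passed between rods and cones, 46.2% between rods and Müller glia, 38.2% between rods and amacrine cells, 44% between cones and Müller glia, 34.8% between cones and amacrine cells and 42.2% between Müller glia and amacrine cells. BHLHE41 (chr12:26120026-26125127, minus strand) averaged 24.5 ± 13.3 CPM in rods, 22.1 ± 13.4 CPM in Müller glia, 19.4 ± 18.1 CPM in cones and 5.2 ± 4.8 CPM in amacrine cells. It was higher than in amacrine cells by log2 2.20 ± 0.39 in rods, 2.46 ± 0.40 in Müller glia and 1.92 ± 0.43 in cones (adjusted p = 5.4e-05, 2.5e-05 and 0.0009). The first 3 classes did not differ beyond their spread. In cultured Set 1 BHLHE41 was at 11.7 CPM in amacrine cells, on 3 counts, above the 9.30 CPM of cones. Rods there had 15.4 CPM and Müller glia 12.2 CPM. Its amacrine counts in Sets 2 and 3 were 0 and 12 in transplanted and 13 and 1 in cultured sums.

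PER1 (chr17:8140472-8156506, minus strand), the period gene that responds fastest to cyclic AMP and glucocorticoids, averaged 26.7 ± 26.6 CPM in Müller glia, 17.1 ± 15.4 CPM in cones, 14.2 ± 6.1 CPM in rods and 7.3 ± 3.1 CPM in amacrine cells. Its amacrine level was below each of the other 3, by log2 2.28 ± 0.37 against Müller glia at the most, and rods were below Müller glia by log2 -0.79 ± 0.23 (adjusted p = 0.005). Cultured Set 1 went the other way, with 11.7 CPM on 3 counts in amacrine cells. Rods there had 8.92 CPM, cones 5.72 CPM and Müller glia 8.49 CPM. PER1 counts in amacrine Sets 2 and 3 were 1 and 5 in transplanted and 29 and 4 in cultured sums. CRY1 (chr12:106991364-107093829, minus strand) averaged 107.0 ± 85.6 CPM in Müller glia, 74.6 ± 50.5 CPM in rods, 45.9 ± 27 CPM in amacrine cells and 36.3 ± 24.97 CPM in cones. Cones were below Müller glia by log2 -1.25 ± 0.27 (adjusted p = 0.001), and amacrine cells were below both Müller glia and rods. PER3 (chr1:7784320-7845177, plus strand) passed only for rods against amacrine cells, with rods higher by log2 0.78 ± 0.22 (adjusted p = 0.004). PER2 (chr2:238244038-238290102, minus strand), CRY2 (chr11:45847118-45883248, plus strand), NR1D1 (chr17:40092787-40100725, minus strand) and DBP (chr19:48630030-48637438, minus strand) passed for no pair. PER2 class means lay between 8.3 and 10.6 CPM and those of CRY2 between 14.0 and 17.4 CPM. NR1D1 averaged 13.8 ± 5.0 CPM in rods and 34.6 ± 48.4 CPM in cones, where 1 sample set the mean. The number of level differences passed was 4 without Set 3 and 20 without Set 1.

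**Figure D1:**
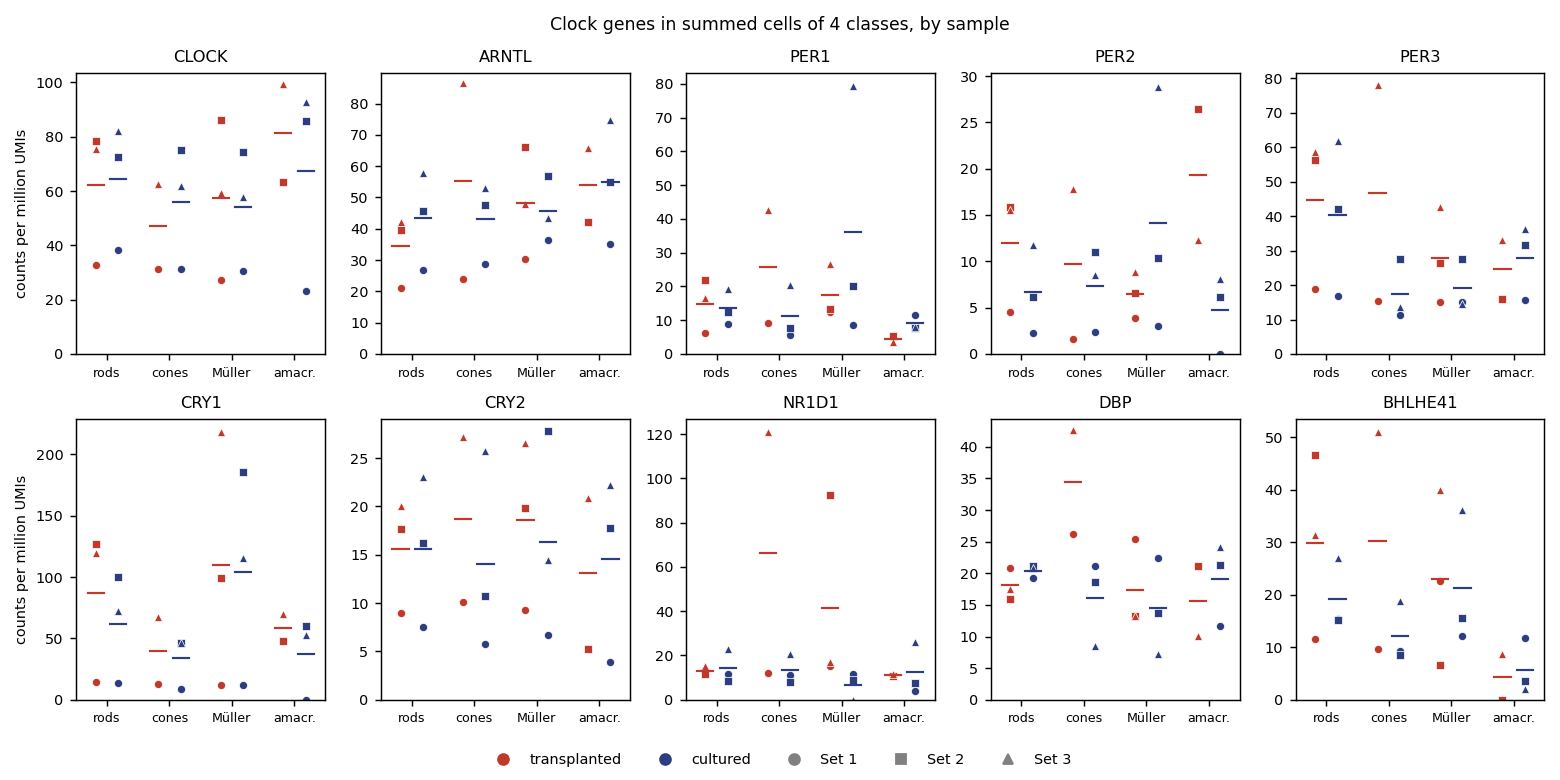
Clock gene levels in CPM (vertical axis, own scale per gene) in rods, cones, Müller glia and amacrine cells of each transplanted (red, left) and cultured (blue, right) sample, with sums under 20 cells left out; points are samples, symbols are Sets and short lines are means. By its means BHLHE41 lies lowest in amacrine cells, and CRY1 in rods is near 14 CPM in both Set 1 samples and above 70 CPM elsewhere.

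In rods no clock gene changed past the threshold. None of the 10 genes passed the adjusted threshold of 0.05, against 3.89% of all 16263 genes tested, and 2 had an unadjusted p under that value. None passed under any of the 13 alternatives that changed this fit either. In data simulated at this size, a change of 2 times was called in 40% of cases in rods, 20% over all kept cells, 9% in cones, 0% in amacrine cells and 2% in Müller glia, so changes of that size could be missed. The median change was log2 0.12, against -0.04 over all genes tested. Between 2 times the SE on either side, CLOCK allowed changes of log2 -0.42 to 0.41.

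The activators of rods had values at or near 0 or below it as log2 changes. CLOCK was at 32.8, 78.4 and 75.6 CPM in transplanted Sets 1 to 3 and at 38.3, 72.4 and 82.1 CPM in cultured Sets 1 to 3 (log2 0.00 ± 0.21, adjusted p = 0.998). Both groups had a low Set 1 and overlapped in full. ARNTL was at 21.1, 39.6 and 42.3 CPM in transplanted and at 26.98, 45.6 and 57.9 CPM in cultured rods (log2 -0.26 ± 0.21, adjusted p = 0.55). It was the only member that was lower after transplantation in 3 of 3 Sets, at 0.78, 0.87 and 0.73 times the cultured level, a pattern that 23.3% of all genes showed.

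Among the repressors of rods, PER2 and CRY1 were higher in the transplanted sample of 3 of 3 Sets, as were 14.2% of all genes. PER2, the period gene tied to light and metabolic resetting, was at 4.49, 15.9 and 15.5 CPM in transplanted and at 2.23, 6.15 and 11.8 CPM in cultured rods. That is 2.01, 2.58 and 1.32 times the cultured level by Set, on 17 to 144 counts in transplanted and 11 to 108 counts in cultured sums. Its fitted change was log2 0.99 ± 0.34 (adjusted p = 0.11, range over alternatives 0.068 to 0.99998). CRY1 was at 14.8, 126.9 and 120.0 CPM in transplanted and at 13.6, 100.1 and 72.0 CPM in cultured rods (log2 0.51 ± 0.23, adjusted p = 0.26). The groups overlapped for each of the 10 genes, while they did not overlap for 8.66% of all genes.

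BHLHE41 in rods was at 11.6, 46.7 and 31.3 CPM in transplanted and at 15.4, 15.2 and 27 CPM in cultured samples (log2 0.58 ± 0.32, adjusted p = 0.37). Set 1 went down and Set 2 went up 3.08 times, so the Sets did not share a direction. PER1 was likewise at 6.08, 22.0 and 16.6 CPM in transplanted and 8.92, 12.4 and 19.1 CPM in cultured rods, higher in Set 2 and lower in Sets 1 and 3. PER3, CRY2, NR1D1 and DBP had fitted changes of log2 0.24, 0.12, 0.00 and -0.09, each within 2 SE of 0.

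In cones, 9 of the 10 fitted changes were above 0, but these came with 2 Sets and mostly from Set 3. None passed the adjusted threshold, against 1.4% of the 11897 genes tested, and 3 had an unadjusted p under it. The members' median was log2 0.61, against -0.01 over all genes tested. NR1D1, the nuclear receptor that represses ARNTL, was at 12.3 CPM in transplanted Set 1 and 120.7 CPM in transplanted Set 3, against 11.2 and 20.6 CPM in the cultured cones of those Sets (log2 1.26 ± 0.41, adjusted p = 0.10). The change was 1.09 times in Set 1 and 5.87 times in Set 3. The 13 transplanted cones of Set 2, below the 20 needed, held 17 NR1D1 counts or 262.2 CPM, against 7.96 CPM in cultured Set 2, and 2 of those 13 cells carried all 17 counts. Allowing sums of 10 cells adds Set 2, with these 13 transplanted and 425 cultured cones. The change of NR1D1 in cones was then log2 2.24 ± 0.46 (adjusted p = 0.001). The median mitochondrial share was 0.239% in those 13 cells, against 1.74% in the cultured cones of that Set, and its part in the value was not tested.

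PER3 in cones was at 15.5 and 78.1 CPM in transplanted and at 11.4 and 13.7 CPM in cultured Sets 1 and 3 (log2 1.26 ± 0.41, adjusted p = 0.10). DBP was at 26.1 and 42.6 CPM in transplanted and at 21.2 and 8.57 CPM in cultured cones (log2 0.88 ± 0.41, adjusted p = 0.36). Over Sets 1 and 3, PER3 and DBP were the 2 members whose groups did not overlap, as for 20.7% of all genes. Their cultured Set 3 values rested on 8 PER3 and 5 DBP counts. The 425 cultured cones of Set 2, left out for want of a partner, were at 27.5 CPM for PER3, above transplanted Set 1. DBP was at 18.7 CPM there, below both transplanted sums. Of the 10, 8 were higher in the transplanted sample of both Sets, as were 29.8% of all genes; ARNTL and PER2 were the exceptions. None of the 10 was lower in both Sets, as were 27.7% of all genes. CLOCK was at 31.5 and 62.7 CPM in transplanted and at 31.2 and 61.7 CPM in cultured cones (log2 -0.01 ± 0.38), the smallest change of the 10.

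In Müller glia, NR1D1 was the only member that passed, against 0.675% of the 14807 genes tested. It was at 15.2, 92.6 and 16.8 CPM in transplanted Sets 1 to 3 and at 11.8, 8.84 and 0.00 CPM in cultured Sets 1 to 3, so the groups did not overlap, as for 6.7% of all genes. The counts behind these were 173, 14 and 19 in transplanted and 151, 40 and 0 in cultured sums. For cultured Set 3, with 0 counts among 138610 UMIs, the floor of 3 counts is 21.6 CPM and the upper 95% counting limit 26.6 CPM. Both are above the 16.8 CPM of its transplanted partner, so that Set gives no fold. The fitted change of NR1D1 was log2 1.54 ± 0.42 (adjusted p = 0.04), while Set 1, with the most cells, differed by 1.30 times. Without Set 2, where 4 of the 25 transplanted cells carried all 14 counts, the change was 0.74 ± 0.50 (adjusted p = 0.9998), and it passed in 1 of the 11 alternatives that changed the glia fit.

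The other members showed no shared direction in Müller glia. PER1 was at 12.3, 13.2 and 26.6 CPM in transplanted and at 8.49, 20.1 and 79.4 CPM in cultured glia, the last on 11 counts. CRY1 was at 12.2, 99.2 and 217.9 CPM in transplanted and at 11.8, 185.7 and 115.4 CPM in cultured glia. BHLHE41 was at 22.6, 6.62 and 39.9 CPM in transplanted and at 12.2, 15.5 and 36.1 CPM in cultured glia (log2 0.66 ± 0.41, adjusted p = 0.92). Set 1, the only one with over 1000 glia on each side, had 1.85 times more BHLHE41, 1.45 times more PER1 and 1.38 times more CRY2 in the transplanted sample, and less CLOCK (0.89 times) and ARNTL (0.83 times). NR1D1 alone had the higher CPM in the transplanted sample of 3 of 3 Sets, with Set 3 set against the count of 0 above, as were 9.34% of all genes, and none was lower in 3 of 3, as were 19.8% of all genes. The members' median was log2 0.24, against 0.00 over all genes.

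In amacrine cells 8 of the 10 genes had enough counts to test, and none passed; of the 10877 genes tested 0% passed (493 genes had an unadjusted p under 0.05, and DESeq2 called 1 gene). PER2 was at 26.4 and 12.3 CPM in transplanted and at 6.19 and 8.07 CPM in cultured Sets 2 and 3, on 5, 17, 23 and 4 counts (log2 1.46 ± 0.78, adjusted p = 0.94). It was the only member higher in both Sets, as were 21% of all genes. PER1, ARNTL, PER3, CRY2 and DBP were lower in both Sets, as were 31.6% of all genes. Over Sets 2 and 3, PER1, PER2 and DBP had groups that did not overlap, as did 32.5% of all genes, and counts were mostly under 30. DBP was at 21.1 and 10.1 CPM in transplanted and at 21.3 and 24.2 CPM in cultured Sets 2 and 3. Its transplanted Set 2 value rested on 4 counts. Cultured Set 1, left out for want of a partner, had 11.7 CPM of DBP on 3 counts, between the 2 transplanted values. The members' median change was log2 -0.26, against -0.01 over all genes.

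Summed over all kept cells of a sample, gated or not, no clock gene changed past the threshold. By CPM both activators were lower after transplantation in 3 of 3 Sets, as were 24.5% of all genes, and 7 of the other 8 members were higher in 3 of 3 Sets, as were 12.6% of all genes. None passed the adjusted threshold, against 1.79% of the 24414 genes tested, and 5 had an unadjusted p under it. BHLHE41 was at 20.7, 49.3 and 34.5 CPM in transplanted and at 16.4, 13.3 and 24.2 CPM in cultured samples (log2 1.03 ± 0.28, adjusted p = 0.09). NR1D1 was at 15.9, 34.2 and 30.4 CPM in transplanted and at 12.5, 10.0 and 25.8 CPM in cultured samples (log2 0.90 ± 0.27, adjusted p = 0.13). PER2 was at 3.74, 19.1 and 18 CPM in transplanted and at 3.18, 7.50 and 12.9 CPM in cultured samples (log2 0.82 ± 0.27, adjusted p = 0.16). In each of these Set 2 moved most. The sums include the cells of no gate. In those cells BHLHE41 was at 47.5, 112.9 and 82.9 CPM in transplanted and 28.4, 26.6 and 27.7 CPM in cultured samples. NR1D1 there was at 72.1 and 85.7 CPM in transplanted and at 17.6 and 29.3 CPM in cultured Sets 2 and 3. It was higher in the transplanted sample of Set 1 as well. CLOCK and ARNTL had no shared direction over the Sets in those cells. The part of those cells in the changes over all kept cells was not tested.

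DBP was the only member whose groups did not overlap over all kept cells, as for 8.17% of all genes, at 26.97, 32.3 and 21.5 CPM in transplanted and 20.4, 20.6 and 18.8 CPM in cultured samples (log2 0.53 ± 0.19, adjusted p = 0.21). ARNTL was at 23.9, 40.5 and 45.6 CPM in transplanted and at 31.9, 46.6 and 65.4 CPM in cultured samples, or 0.75, 0.87 and 0.70 times. CLOCK was at 0.86, 0.90 and 0.93 times the cultured level. CRY2 was the exception among the repressors, at 0.91 times in Set 3. The fitted change of CLOCK was log2 -0.03 ± 0.22 (adjusted p = 0.97), and it was above 0 without Set 1 or Set 2. The mix of cells differed between the groups. Horizontal cell markers summed to 216.7, 232.4 and 304.1 CPM in transplanted and 561.4, 464.2 and 583.1 CPM in cultured samples. The dividing progenitor markers summed to 456.3, 185.8 and 166.7 CPM in transplanted and 1372, 338.1 and 321.6 CPM in cultured samples, and the part of either in these sums was not tested. BHLHE41 passed under 3 of the 11 alternatives that changed this fit, PER2 under 1 and NR1D1 under 1.

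**Figure D2:**
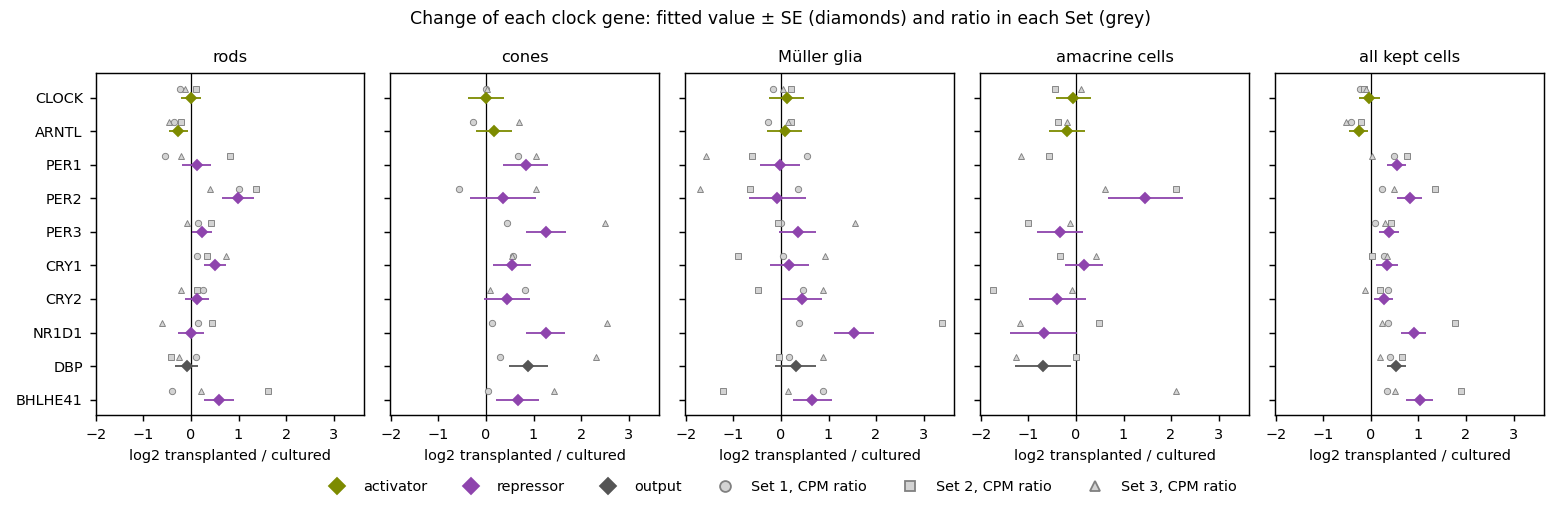
Change of each clock gene, as log2 of transplanted over cultured, in the 4 classes and in all kept cells; diamonds are fitted values with their SE, grey symbols the ratio of CPM in each Set. In rods CLOCK and NR1D1 sit at 0.00 and ARNTL at -0.26, and over all kept cells the 2 activators lie left of 0 in each Set.

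The balance of the arms was followed as the summed UMIs of the 7 repressors (PER1, PER2, PER3, CRY1, CRY2, NR1D1 and BHLHE41) over those of CLOCK and ARNTL. This ratio uses no library size, so it does not move with the scaling. In rods it was 1.44, 2.51 and 2.35 in transplanted Sets 1 to 3 and 1.17, 1.70 and 1.70 in cultured Sets 1 to 3. The transplanted sample was higher in 3 of 3 Sets, by log2 0.30, 0.56 and 0.47 (mean 0.45 ± 0.13 SD, n = 3 Sets). The counts behind the lowest sums were 134 activator and 337 repressor UMIs in transplanted Set 2 and 249 and 423 in cultured Set 3. The ratio gets no p here, since its genes were chosen with results in view.

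In cones the ratio was 1.28 in transplanted Set 1 and 2.71 in transplanted Set 3, against 0.90 and 1.34 in the cultured cones of those Sets, or log2 0.50 and 1.01 higher. In Müller glia it was 1.58, 1.74 and 3.54 in transplanted and 1.03, 2.25 and 2.86 in cultured samples, so Set 2 went the other way (log2 0.61, -0.37 and 0.31). In amacrine cells it was 1.05 and 0.97 in transplanted and 0.96 and 0.93 in cultured Sets 2 and 3, a difference under its counting error. Over all kept cells it was 1.70, 2.90 and 2.43 in transplanted samples and 1.11, 1.72 and 1.67 in cultured samples. That difference was log2 0.61, 0.75 and 0.55 by Set (mean 0.64 ± 0.10 SD, n = 3 Sets).

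The higher ratio of transplanted rods was also seen with other choices of genes. Without CRY1, the member that differed most between Sets, it was log2 0.28, 0.76 and 0.17 higher in the transplanted rods of Sets 1 to 3. With PER1, PER2 and PER3 as the only repressors it was 0.34, 0.63 and 0.22 higher. Against CLOCK alone the difference averaged 0.35 ± 0.10 SD and against ARNTL alone 0.61 ± 0.20 SD. In cells with at least 1% mitochondrial UMIs it averaged 0.46 in rods and 0.59 over all kept cells. Marker counts of other classes in the rod sums moved with the groups: the 8 dividing progenitor markers summed to 173.8, 74.9 and 107.0 CPM in transplanted and 680.1, 157.1 and 210.4 CPM in cultured rods. The 6 horizontal cell markers summed to 177.0, 114.5 and 139.9 CPM in transplanted and 380.3, 233.5 and 302.6 CPM in cultured rods, and the 6 ganglion cell markers to 11.6, 7.93 and 15.0 CPM against 24.3, 19.8 and 18 CPM. The 6 T or NK cell markers, 2 of them at 0 in each rod sum, summed to 11.1, 27.3 and 23.6 CPM in transplanted and 4.26, 8.89 and 5.63 CPM in cultured rods. In cones they summed to 8.29 to 16.5 CPM in transplanted and 3.43 to 5.77 CPM in cultured sums. In Müller glia they reached at most 0.97 CPM in transplanted and 0.62 CPM in cultured sums. The 8 myeloid markers had no shared direction in rods, at 3.17, 1.76 and 6.04 CPM in transplanted and 2.64, 3.02 and 5.63 CPM in cultured samples. The part of these markers in the ratio was not tested.

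**Figure D3:**
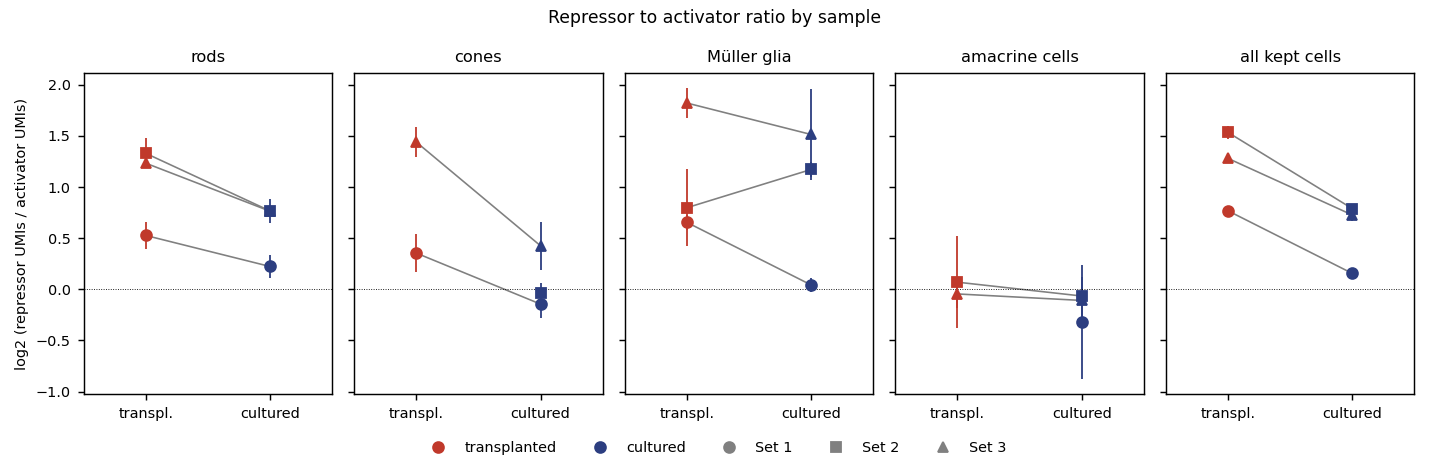
Log2 ratio of summed repressor UMIs to summed activator UMIs in each sample, transplanted left and cultured right, with lines joining the samples of a Set and bars for 1 counting SE. The transplanted sample lies above its cultured partner in 3 of 3 Sets of rods and of all kept cells, while Set 2 of the Müller glia runs the other way.

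Whether the classes responded differently was tested in 1 fit over all 4 of them. None of the 60 tests (10 genes, 6 pairs of classes) passed, with a smallest adjusted p of 0.25 and 7 unadjusted p under 0.05. Over all genes these tests passed for 0% between rods and cones, 0.0584% between rods and Müller glia, 0% between rods and amacrine cells, 0.146% between cones and Müller glia, 0.0642% between cones and amacrine cells and 0.0292% between Müller glia and amacrine cells. So the rise of NR1D1 in Müller glia is not shown to be larger than its change in rods. Without Set 1, NR1D1 passed in 2 pairs, with a response lower in rods than in cones by log2 -3.10 ± 0.57 and higher in cones than in amacrine cells by 3.37 ± 0.72 (adjusted p = 0.004 and 0.01), and 1 transplanted sum of cones, that of Set 3, then remained.

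NR1D1 and BHLHE41 also differed with the mitochondrial share of cells within a library. Kept cells of each sample were split by their mitochondrial share, under 1% against 1% or more, and compared with the sample as a block. The split pooled all classes and the cells of no gate, so a difference in class mix across it cannot be told apart here. Both genes were higher in the low-share cells, and the other 8 members did not pass; 8.1% of the 21073 genes tested passed. BHLHE41 was at 45.1, 82.7 and 72.5 CPM in low-share and 17.9, 38.0 and 29.1 CPM in high-share transplanted cells. In cultured samples it was at 20.8, 17.2 and 33.0 CPM in low-share and 15.3, 12.1 and 17.8 CPM in high-share cells. It was higher in 6 of 6 samples (log2 0.85 ± 0.12, adjusted p = 4.3e-05). Median UMIs per cell were 1812, 2123 and 4033 in low-share and 3808, 4385 and 3234 in high-share transplanted cells, and low-share cells were also the shallower in each cultured sample, so depth per cell differed across the split in 5 of 6 samples one way and in transplanted Set 3 the other way.

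NR1D1 was at 21.5, 47.2 and 69.1 CPM in low-share and 15.3, 29.7 and 24.9 CPM in high-share transplanted cells. In cultured samples it was at 14.0, 13.7 and 33.0 CPM in low-share and 12.1, 8.88 and 20.6 CPM in high-share cells, higher in 6 of 6 samples over both groups (log2 0.63 ± 0.13, adjusted p = 0.006). Within each of these 2 kinds of cell, both genes were still higher in the transplanted sample of 3 of 3 Sets. The difference in BHLHE41 was log2 1.12, 2.27 and 1.14 in low-share and 0.23, 1.65 and 0.71 in high-share cells of Sets 1 to 3. The 2 groups have different shares of low-share cells, without a shared direction. Low-share cells made up 1189 of 7321, 297 of 690 and 716 of 4632 kept cells in transplanted Sets 1 to 3. In cultured Sets 1 to 3 they were 3342 of 15336, 2326 of 9744 and 1048 of 1857. Their share was thus lower in the transplanted sample of Sets 1 and 3 and higher in that of Set 2. Its part in the changes over all kept cells was not tested beyond these values.

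**Figure D4:**
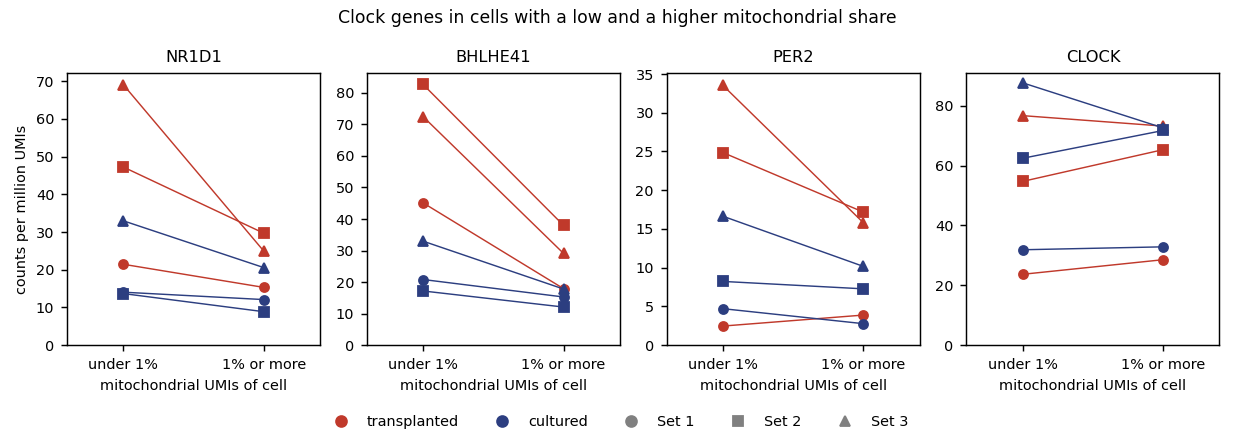
Levels of NR1D1, BHLHE41, PER2 and CLOCK in CPM in kept cells with under 1% (left) and at least 1% (right) mitochondrial UMIs, each line being 1 sample. NR1D1 and BHLHE41 are higher on the left in 6 of 6 samples, and CLOCK has no common direction.

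The wider clock machinery gave no calls in the main fits. No additional activator passed in rods, and those with the highest means there were RORB and RORA. RORB, an orphan receptor needed for rod development that also drives ARNTL, was at 489.0, 652.8 and 494.7 CPM in transplanted and 798.3, 595.0 and 864.6 CPM in cultured rods (log2 -0.39 ± 0.33, adjusted p = 0.59). RORA was at 83.2, 423.8 and 532.8 CPM in transplanted and 64.1, 547.4 and 464.7 CPM in cultured rods. Of 3 additional repressors none passed in rods. NR1D2, the paralogue of NR1D1, was at 66.6, 141.0 and 122.6 CPM in transplanted and 48.3, 107.6 and 86.1 CPM in cultured rods, higher in each Set (log2 0.53 ± 0.21, adjusted p = 0.20). BHLHE40, the paralogue of BHLHE41, was at or below 7.88 CPM in each rod sum.

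Of the 3 PAR bZIP outputs and their antagonist (TEF, HLF and NFIL3) none passed in rods; NFIL3, which opposes DBP at the D-box, had log2 0.16 ± 0.21 and HLF 0.08 ± 0.32. Of 14 kinases, phosphatases and ubiquitin ligases that set the stability of clock proteins, 14 were tested in rods and 0 passed (median log2 -0.10). CSNK1A1 and GSK3B, kinases of clock proteins, had log2 -0.14 ± 0.25 and -0.40 ± 0.23. Of 5 clock outputs of photoreceptors none passed in rods. ADCY1, the adenylyl cyclase under clock control in photoreceptors, was at 58.4, 268.7 and 215.1 CPM in transplanted and 38.1, 136.6 and 137.8 CPM in cultured rods, higher in each Set (log2 0.82 ± 0.23, adjusted p = 0.053). AANAT, the enzyme that times melatonin synthesis, was at 111.2, 48.5 and 65.4 CPM in transplanted and 85.0, 56.5 and 34.9 CPM in cultured rods (log2 0.42 ± 0.24, adjusted p = 0.39). These lists gave no call in cones, Müller glia, amacrine cells or all kept cells. Under the alternatives ADCY1 passed in 3 of 13 in rods and AANAT in 4 of 11 over all kept cells. AANAT there had log2 0.90 ± 0.25 in the main fit (adjusted p = 0.096 by edgeR).

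Among genes that respond to signals known to reset clocks, some rose. Of 12 immediate early genes, 11 were tested in rods and 4 rose (BTG2, DUSP1, JUN and JUNB), where 3.89% of all genes passed, with a median of log2 0.83 against -0.04 over all genes. JUNB passed in 7 of the 13 alternatives that changed the rod fit, and the other 3 in 9 to 11. JUN, a subunit of AP-1, was at 831.7, 600.0 and 571.2 CPM in transplanted and 298.2, 283.0 and 239.1 CPM in cultured rods (log2 1.34 ± 0.30, adjusted p = 0.01). In cones ATF3, DUSP1, JUN and IER2 rose, 4 of 11 tested, where 1.4% of all genes passed. ATF3 passed in 7, JUN in 5, DUSP1 in 4 and IER2 in 3 of the 11 alternatives there. No immediate early gene passed in Müller glia (11 tested), amacrine cells (10 tested) or all kept cells (12 tested). Their median changes in those sums were log2 0.40, 1.22 and 0.78. Of 8 glucocorticoid response genes, CEBPD rose in rods (log2 2.12 ± 0.32), cones (1.84 ± 0.41), Müller glia (1.52 ± 0.40) and all kept cells (2.23 ± 0.40), with adjusted p between 0.002 and 0.03. It passed in 12 of 13 alternatives in rods, but in 6 of 11 in cones, 3 of 11 in Müller glia and 9 of 11 over all kept cells. In rods it was at 187.6, 182.4 and 99.4 CPM in transplanted and 82.1, 37.2 and 12.4 CPM in cultured samples, and the other 6 tested there did not pass. Of 10 hypoxia response genes NDRG1 alone rose in rods (log2 1.12 ± 0.21, adjusted p = 0.004). No list had a member that fell.

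The genes most like each clock gene over the 22 class-by-sample sums were named by Pearson's correlation of log2(CPM + 1) among 8215 genes with a mean of at least 20 CPM, as a description over sums that share libraries, depth and the Set difference. CLOCK was most like LMBR1 (r = 0.97), PPP6R3 and KIAA1328, and CRY1 most like NAALADL2 (r = 0.94), IMMP2L and ZXDC. ARNTL was most like AL139260.1 (r = 0.91), ZNF814 and SLC7A6, and PER3 most like WAC (r = 0.86), PPP6C and LURAP1L. NR1D1 was most like ZNF622 (r = 0.86), HEXIM1 and TMEM259, none of which was among the neighbours of the other 4. The remaining 5 members had means under 20 CPM and were not compared.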

How the data were processed

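Single-cell RNA libraries (10x Genomics 3′ v3.1, per the labels) were made from 6 samples. Per the file headers, the authors counted UMIs with Cell Ranger 6.0.2 (Set 1) or 7.1.0 (Sets 2 and 3), on GRCh38 per the submitters' processing notes, and deposited raw counts. Whether intronic reads were counted is not given in the sources used here. Cells were kept with at least 1000 UMIs, 500 genes and at most 20% mitochondrial UMIs. Scrublet (Scanpy 1.11.5, 30 components) called almost no doublets by itself, so the highest scores were removed up to 0.8% per 1000 cells. Of the kept cells, 3167, 208 and 1535 transplanted and 6368, 4049 and 609 cultured cells passed exactly 1 gate; 1363, 49 and 445 against 2091, 1251 and 87 passed several and were left out of the classes.

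Raw counts were summed per class and sample. The main test was edgeR 4.0.16 (R 4.3.3) with filterByExpr, TMM factors, a robust quasi-likelihood fit and the Set as a block, with Benjamini-Hochberg adjustment over all genes kept and a threshold of 0.05. Response and level differences between classes came from 1 joint fit with the sample as a block. In simulated data, changes of 4 times were called in 89% of cases in rods, 82% over all kept cells, 64% in cones, 53% in amacrine cells and 60% in Müller glia. The Set number pairs the samples, since the series' design text says both came from 1 batch of organoids. Over the genes tested in rods, deviations from the group mean correlated between same-Set samples at r = 0.91, 0.50 and 0.75. Across Sets 2 and 3 they correlated at 0.56 and 0.57, above the 0.50 of Set 2, so these values do not tell Sets 2 and 3 apart. The labels call the Sets independent experiments.

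Positive changes are higher in transplanted samples, ± beside a log2 change is its SE, and counting intervals and floors (3 counts) cover counting error only. The depth range is given with the samples; fewer cells and less RNA per cell enter these sums alike. The members, gene lists and tests were chosen with earlier results of these data known. All 10 clock genes are described in each class. Of each list, up to 4 genes per class past the threshold are named, or else the 2 with the highest mean. DESeq2 1.42.0, other filters, gates and sums, and leaving out each Set were the alternatives.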

Additional observations from a re-analysis of the deposited data

How the results depend on the processing

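No clock gene passed in rods under any alternative, and the higher repressor ratio of transplanted rods and of all kept cells kept its direction under each alternative run; without 1 Set at a time it ran between 0.39 and 0.52 in rods and between 0.58 and 0.68 over all kept cells. Counts over all genes depended on the Sets. Without 1 Set at a time, the genes called numbered between 33 and 719 over all kept cells, 5 and 808 in rods, 1 and 147 in Müller glia and 542 and 1621 for the mitochondrial split. For cones and amacrine cells, leaving out the Set that is already missing repeats the fit, and the other cases left 1 Set and were not run. Calls among the clock genes ran between 4 and 20 for level differences and between 0 and 2 for response differences.

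Without the replicate block, 0 genes were called over all kept cells and in amacrine cells, rods, Müller glia and cones (419, 98, 365, 131 and 203 at an unadjusted p under 0.05), 4 in the mitochondrial split and 4 among the level differences; the cause was not tested. With DESeq2 the counts were 803 over all kept cells, 349 in rods, 83 in cones, 1 in amacrine cells and 6 in Müller glia. Without the low-count filter they were 64 in Müller glia, 1 in amacrine cells and 1259 over all kept cells, and 19 for level differences. The stricter cell filter gave 34 in Müller glia, 666 over all kept cells, 81 in cones and 1 in amacrine cells. Raised gates gave 420 in rods, 32 in cones and 35 in amacrine cells, and left too few Müller glia. Keeping cells that pass several gates gave 742 in Müller glia and 257 in amacrine cells, keeping doublets 26 in cones, and the host filter, which drops cells with few clone-named transcripts, 1004 over all kept cells. Library size alone gave 15 in amacrine cells and moved the median of all genes to log2 -0.15 in Müller glia and -0.17 over all kept cells. With it, 192 of 671 calls in rods were higher in transplanted samples, against 247 of 633 with TMM, 21 of 91 against 43 of 100 in Müller glia, 186 of 598 against 202 of 438 over all kept cells, and 955 of 1555 against 609 of 1706 higher in low-share cells. Chosen after seeing the data, the split at 0.5% gave 713, cells with at least 1% mitochondrial UMIs 1069 over all kept cells, and sums of 10 cells 26 in amacrine cells.

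The ratio in amacrine cells moved most, on few counts: -0.19 with raised gates, 0.65 with cells of several gates, 0.58 with doublets, 0.0066 in cells with at least 1% mitochondrial UMIs, 0.78 with sums of 10 cells, 0.0032 without CRY1, 0.19 with the PER genes alone and 0.17 against ARNTL alone. It was 1.25 in cones with sums of 10 cells, 0.61 in rods against ARNTL alone, and 0.76 over all kept cells both without CRY1 and against ARNTL alone. In Müller glia it ran between -0.03 and 0.46, in cones between 0.50 and 1.01 and in amacrine cells between 0.06 and 0.14 without 1 Set at a time.

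Changes that turned sign are given as log2 values, with the range over the 3 fits that each left out 1 Set where one of these turned. In rods CLOCK was 0.027 without the block, 0.0057 with DESeq2, 0.011 with the stricter filter, 0.031 with raised gates, 0.0031 with doublets, 0.0032 with the host filter, 0.011 with at least 1% mitochondrial UMIs and -0.076 to 0.15 over the Sets left out. PER1 was -0.24 to 0.45 over the Sets left out. NR1D1 was -0.073 with library size only, -0.026 with the stricter filter, -0.21 with raised gates, -0.016 with the host filter, -0.11 with at least 1% mitochondrial UMIs and -0.15 to 0.22 over the Sets left out. DBP was 0.55 with cells of several gates and -0.17 to 0.024 over the Sets left out. RORA was -0.024 to 0.38 over the Sets left out. BHLHE40 was 0.36 with cells of several gates. HLF was -0.010 with library size only, -0.11 with cells of several gates, -0.066 with doublets and -0.18 to 0.24 over the Sets left out. CSNK1A1 was -0.36 to 0.0065 over the Sets left out. In cones CLOCK was 0.014 with library size only, 0.014 with the stricter filter, 0.067 with raised gates and 0.064 with the host filter. ARNTL was -0.065 with raised gates and -0.085 with cells of several gates. In Müller glia CLOCK was -0.0099 with library size only, -0.077 with cells of several gates and -0.060 to 0.23 over the Sets left out. ARNTL was -0.050 with library size only, -0.33 with cells of several gates and -0.13 to 0.29 over the Sets left out. PER1 was 0.17 with the stricter filter, 0.12 with cells of several gates, 0.32 with the host filter and -1.09 to 0.37 over the Sets left out. PER2 was 0.22 with the stricter filter, 0.48 with cells of several gates, 0.17 with the host filter, 0.0053 without Set 2 and 0.24 without Set 3. The fit without Set 1 gave no value for PER2, which by CPM was at 0.64 and 0.31 times the cultured level in Sets 2 and 3. CRY1 was -0.41 to 0.71 over the Sets left out. BHLHE41 was -0.12 to 0.90 over the Sets left out. In amacrine cells CLOCK was 0.25 without the block. ARNTL was 0.10 with raised gates. PER3 was 0.074 with cells of several gates. CRY2 was 0.066 with cells of several gates. NR1D1 was 1.03 with cells of several gates and 0.84 with doublets. DBP was 0.53 with cells of several gates. Over all kept cells CLOCK was 0.022 with at least 1% mitochondrial UMIs and -0.20 to 0.064 over the Sets left out. Depth limits the sums under 50 cells, where a single count is worth several CPM.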
